A study of Mus musculus with 4 samples.

Results

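The genes described here are 7 interferon-stimulated genes of the mouse: Ifit1, Ifit1bl1, Ifit2, Ifit3 and Ifit3b, which are paralogues of the Ifit family, together with Isg15 and Usp18. They were chosen by symbol alone, and all 7 symbols were found among the 27998 genes of the deposited gene table. The cells came from the pleural fluid of C57BL/6 mice carrying malignant pleural effusions of Lewis lung carcinoma (LLC), a mouse lung tumour line. Single-cell RNA sequencing with the 10x Genomics 3′ assay, which marks RNA with a cell barcode and a unique molecular identifier (UMI) per molecule, was made in 4 libraries. The LNP-cGAMP library came from mice given 1 µg of LNP-cGAMP into the pleural space on day 11, a lipid nanoparticle carrying cGAMP, the natural ligand of the DNA-sensing adaptor STING. The anti-PD-L1 library came from mice given 30 µg of an antibody against the immune checkpoint ligand PD-L1, and the combination library from mice given both agents at these doses. The PBS library came from mice given PBS by the same route. All cells were collected on day 13, 48 h after the injection, and cells of 3 mice were pooled per library, with red cells lysed and 4000 cells loaded. Age and sex of the mice are not given in the sources used here. Each treatment had a single library, so differences have no replicate check and no test was possible, and every interval below is a 95% interval that covers counting error only.

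Type I interferon binds its receptor, IFNAR1 with IFNAR2, and activates ISGF3, a transcription factor complex that binds the interferon-stimulated response element in the promoters of its target genes. IFIT proteins bind viral RNA and restrict its translation. ISG15 is a ubiquitin-like protein that is conjugated to other proteins, while USP18 removes ISG15 from them and also restrains signalling at IFNAR2, so the set holds both effectors and a brake of the same pathway.

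In the annotation of GRCm38 the Ifit genes lie side by side on chromosome 19, within 99.3 kb that hold 6 Ifit genes. In order they are Ifit2 (34550694 to 34576419, plus strand), Ifit3 (34583531 to 34588731, plus), Ifit1bl1 (34592891 to 34601956, minus), Ifit3b (34607970 to 34613401, plus), Ifit1bl2 (34617049 to 34640743, minus), which is not among the 7, and Ifit1 (34640871 to 34650009, plus). Isg15 lies on chromosome 4 (156199424 to 156200818, minus) and Usp18 on chromosome 6 (121245906 to 121270917, plus).

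The promoters are shown because the genes share an input and, as the values below show, differ in level and response. The sequences run 5′ to 3′ on the gene's own strand and are from RefSeq (GRCm38.p6). They lie at chr19:34640744-34640870 for Ifit1, chr19:34601969-34602158 for Ifit1bl1, chr19:34583339-34583528 for Ifit3, chr19:34607767-34607956 for Ifit3b, chr4:156200819-156201008 for Isg15 and chr19:34550504-34550693 for Ifit2. Each is 190 bases except that of Ifit1, which is 127 bases so that it holds no annotated exon. Capitals mark matches to a motif of 10 bases, TTTC, then any 2 bases, then TTTC again (read on the other strand as GAAA, any 2 bases and GAAA), a spelling of the core of the interferon-stimulated response element.
Ifit1: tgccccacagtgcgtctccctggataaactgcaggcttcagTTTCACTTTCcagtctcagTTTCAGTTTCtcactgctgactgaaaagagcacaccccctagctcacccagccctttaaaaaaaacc
Ifit1bl1: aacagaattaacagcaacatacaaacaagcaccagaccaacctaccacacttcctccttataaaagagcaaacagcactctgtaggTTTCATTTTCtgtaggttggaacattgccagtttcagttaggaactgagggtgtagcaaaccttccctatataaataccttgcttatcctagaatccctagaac
Ifit3: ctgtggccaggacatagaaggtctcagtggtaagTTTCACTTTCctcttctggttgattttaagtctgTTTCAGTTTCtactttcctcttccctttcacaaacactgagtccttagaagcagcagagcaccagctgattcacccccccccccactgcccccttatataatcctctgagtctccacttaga
Ifit3b: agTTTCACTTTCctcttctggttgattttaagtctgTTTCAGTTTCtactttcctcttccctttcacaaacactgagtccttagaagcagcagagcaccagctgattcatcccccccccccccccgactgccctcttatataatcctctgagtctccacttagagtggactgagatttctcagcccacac
Isg15: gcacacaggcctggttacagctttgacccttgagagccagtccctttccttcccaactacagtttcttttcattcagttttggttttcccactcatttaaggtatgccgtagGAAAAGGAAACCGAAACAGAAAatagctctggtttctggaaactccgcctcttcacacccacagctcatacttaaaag
Ifit2: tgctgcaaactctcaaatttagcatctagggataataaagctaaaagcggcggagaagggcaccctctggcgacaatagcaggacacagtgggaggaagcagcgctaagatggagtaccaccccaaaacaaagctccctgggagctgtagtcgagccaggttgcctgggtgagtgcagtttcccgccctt

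Counted over 250 bases upstream of the start, with both strands searched, the motif was in 5 of the 6 members with a promoter entry (83.3%), against 936 of all 27025 genes with an entry (3.46%). Ifit1 carried it 104 and 85 bases upstream of the RefSeq start, Ifit3 156 and 122 bases upstream and Ifit3b 188 and 154 bases upstream. Isg15 carried 3 matches that overlap one another, at 78, 72 and 66 bases upstream, and each of the 2 RefSeq entries of Ifit1bl1 carried 1 match, at 104 and at 23 bases upstream of its own start. Neither RefSeq entry of Ifit2 held these letters in this window, and Usp18 was not in the promoter table. The Ifit2 entries start at 34550694 and 34551088, at the far 5′ end of the gene. Other possible starts and bases outside the window were not searched, so whether Ifit2 has the element is not answered here. Among other type I interferon response genes, 12 of 26 with an entry held the motif (46.2%), and among the 4 genes of ISG15 conjugation none did. In an end-to-end alignment of the Ifit3 and Ifit3b windows of 250 bases, 217 of 282 columns were the same (77.0%), with gaps counted as differences. Nearly all the other columns were gaps, as the windows are offset by their annotated starts, and the paired bases were almost all the same. A match is a description of the letters and not a binding site.

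Ifit3 and Ifit3b are also alike in the transcript ends that a 3′ assay reads. The whole transcripts aligned at 81.2% identity, with gaps counted as differences, and the last 500 bases of Ifit3 aligned to Ifit3b at 94.6% identity. Of 411 windows of 90 bases in the end of the Ifit3 transcript, 27 were also in Ifit3b, while none of the 411 windows in the end of Ifit3b was in Ifit3. No other pair of members shared such a window. Counts of Ifit3 and Ifit3b are therefore uncertain where a read falls in a shared stretch.

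The 4 libraries held 68828158 UMIs (LNP-cGAMP), 87696440 (anti-PD-L1), 88855120 (combination) and 86269137 (PBS), and 2841 to 3841 cells were kept in each, with a median of 16415 to 18559 UMIs per cell. Clusters were named from marker genes and are written as "-like". The 3 classes that were compared each held at least 50 cells in every library. Neutrophil-like cells numbered 1091 (LNP-cGAMP), 926 (anti-PD-L1) and 594 (combination), and 878 in PBS. Monocyte/macrophage-like cells numbered 2300, 2063 and 2553, and 1633 in PBS, and T cell-like cells 241, 148 and 161, and 83 in PBS. Conventional dendritic cell-like cells also held at least 50 in every library (55 to 115) but were not compared. The members and most other interferon response genes were left out of the genes that made the clusters. The pools were not alike in the sex of the mice: among cells with UMIs of either Xist or Y-linked genes but not both, the female-called share was 0% (LNP-cGAMP), 67.8% (anti-PD-L1) and 78.4% (combination), against 0.0532% in PBS. Pairs of libraries shared 16 to 22 cell barcodes, against 1.42 to 2.01 expected by chance, and leaving those cells out moved no count and no ratio of a member beyond its counting interval. Free RNA was estimated to give 0.202% to 15.4% of a class's UMIs.

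Of the compared classes, neutrophil-like cells had the highest levels of the set in every library, except for Ifit1bl1 in PBS. Levels are UMIs of a gene per 1000000 UMIs of the class (CPM). They are shares of a class's UMIs and not amounts per cell. Median UMIs per cell were 2090.5 to 2508.5 in neutrophil-like, 20583 to 34762 in monocyte/macrophage-like and 5753 to 17477 in T cell-like cells. A higher level is thus not a higher count per cell. A UMI counts 1 molecule whatever its length, so levels of different genes were set side by side without a correction for length, and in such sums fewer cells with a transcript and less of it per cell cannot be told apart. All 28 comparisons of neutrophil-like with monocyte/macrophage-like cells, 7 genes in 4 libraries, were at least 1.5-fold higher in neutrophil-like cells. The calls were made on the scale of log2(CPM + 10), and the share of all genes so called was 21.7% (LNP-cGAMP), 26.5% (anti-PD-L1), 22.3% (combination) and 29% (PBS). Against T cell-like cells 26 of 28 were higher in neutrophil-like cells, with 29.2%, 28.1%, 28.6% and 30.8% of all genes in the same library order, and the exceptions were Ifit1bl1 in the anti-PD-L1 and PBS libraries. T cell-like cells were higher than monocyte/macrophage-like cells in 2 of 20 comparisons of the 5 genes that passed the filter on low values, Ifit1 and Ifit3 in PBS, and lower in 12. The shares of all genes in those comparisons were 29% higher and 30.7% lower (LNP-cGAMP), 25.7% and 29.1% (anti-PD-L1), 29.6% and 31.1% (combination), and 26.6% and 29.4% (PBS).

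**Figure D1:**
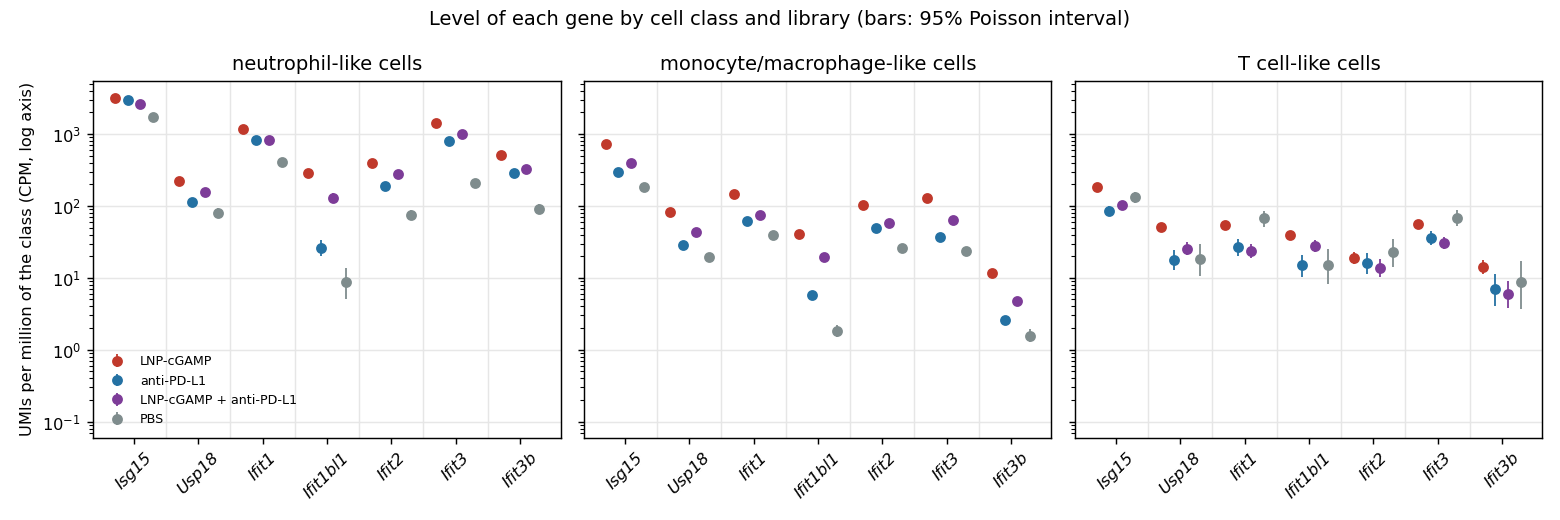
Level of each gene (UMIs per 1000000 UMIs of the class, CPM, log axis) in neutrophil-like, monocyte/macrophage-like and T cell-like cells, with 1 point per library (LNP-cGAMP red, anti-PD-L1 blue, combination purple, PBS grey) and bars for the 95% Poisson interval. Neutrophil-like points are highest for every gene in the treated libraries, and the grey PBS points are lowest in neutrophil-like and monocyte/macrophage-like cells but not in T cell-like cells.

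Isg15, the ubiquitin-like effector, was the most abundant member of neutrophil-like and monocyte/macrophage-like cells in every library. In neutrophil-like cells it had 3192 CPM (LNP-cGAMP), 2964 CPM (anti-PD-L1) and 2663 CPM (combination), against 1749 CPM in PBS. Monocyte/macrophage-like cells had 726.6, 292.6 and 397.4 CPM in that order, against 183.9 CPM in PBS. In T cell-like cells it had 185, 85.9 and 102 CPM, against 132 CPM in PBS. PBS was thus the lowest library in the myeloid classes but the second highest in T cell-like cells.

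Usp18, the enzyme that removes ISG15 and restrains the receptor, was far less abundant than its partner. It had 224.6, 113.9 and 156.4 CPM in neutrophil-like cells of the LNP-cGAMP, anti-PD-L1 and combination libraries, against 79.1 CPM in PBS. Its monocyte/macrophage-like levels were 81.9, 28.8 and 43.5 CPM, against 19.8 CPM in PBS, and in T cell-like cells 51.4, 18.0 and 25.5 CPM, against 18.4 CPM in PBS. The LNP-cGAMP library was highest in each class. UMIs of Isg15 per UMI of Usp18 were 14.2, 26.0 and 17.0 in neutrophil-like cells against 22.1 in PBS, 8.88, 10.1 and 9.14 in monocyte/macrophage-like cells against 9.28 in PBS, and 3.60, 4.78 and 4.00 in T cell-like cells against 7.18 in PBS. The ratio was therefore highest in neutrophil-like cells and lowest in T cell-like cells in all 4 libraries.

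Ifit1, which binds capped viral RNA that lacks the host's methylation mark, had 1162, 828 and 838 CPM in neutrophil-like cells of the LNP-cGAMP, anti-PD-L1 and combination libraries, against 414 CPM in PBS. It had 144.8, 61.6 and 76.0 CPM in monocyte/macrophage-like cells, against 39.3 CPM in PBS. In T cell-like cells the order differed, with 54.5, 26.7 and 23.6 CPM, against 67.1 CPM in PBS.

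Ifit3, which in human cells stabilises IFIT1, had 1436, 797 and 1002 CPM in neutrophil-like cells of the 3 treated libraries, in the same order, against 210 CPM in PBS. It had 127.5, 37.3 and 64.7 CPM in monocyte/macrophage-like cells, against 23.5 CPM in PBS. T cell-like cells had 56.6, 36.4 and 30.4 CPM, against 68.2 CPM in PBS. As for Ifit1, PBS was the lowest library in both myeloid classes and the highest in T cell-like cells.

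Ifit3b, the close copy of Ifit3, was the member with the widest gap between cell types. It had 512, 287 and 322 CPM in neutrophil-like cells, against 91.8 CPM in PBS, but 11.6, 2.55 and 4.80 CPM in monocyte/macrophage-like cells, against 1.56 CPM in PBS. The measured level of neutrophil-like cells was 44.3-fold that of monocyte/macrophage-like cells in the LNP-cGAMP library and 67.1-fold in the combination. For Ifit3 the ratios of levels were 11.3, 21.4 and 15.5, and 8.95 in PBS, and for Usp18 they were 2.74, 3.95 and 3.60, and 3.99 in PBS. Free RNA alone was estimated to give 1.43, 2.32 and 2.37 CPM of Ifit3b in monocyte/macrophage-like cells, and 1.12 CPM in PBS, which is close to the measured level in the anti-PD-L1 and PBS libraries, so expression there was not distinguishable from background and no ratio is given for those libraries. T cell-like cells had 14.2, 7.01 and 5.98 CPM of Ifit3b, against 8.66 CPM in PBS, with at most 0.49 CPM estimated from free RNA.

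Ifit2, which restrains replication of RNA viruses, had 394, 187 and 276.5 CPM in neutrophil-like cells of the LNP-cGAMP, anti-PD-L1 and combination libraries, against 75.1 CPM in PBS. The levels were 102, 49.7 and 57.7 CPM in monocyte/macrophage-like cells, against 25.7 CPM in PBS, and 19.1, 16.2 and 13.9 CPM in T cell-like cells, against 22.7 CPM in PBS. Its gap between neutrophil-like and monocyte/macrophage-like cells was among the smallest of the set, 3.87-fold, 3.76-fold and 4.79-fold in the treated libraries, and 2.92-fold in PBS.

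Ifit1bl1, a mouse paralogue of Ifit1 whose function is less well known, was low in the myeloid classes of the libraries without LNP-cGAMP. Neutrophil-like cells held 812 UMIs in the LNP-cGAMP library, 59 with anti-PD-L1 and 201 with both agents, against 17 in PBS, or 284, 26.0 and 130.5 CPM, against 8.62 CPM in PBS. Monocyte/macrophage-like cells had 40.9, 5.84 and 19.6 CPM, against 1.83 CPM in PBS, and T cell-like cells 39.2, 14.9 and 27.7 CPM, against 15.2 CPM in PBS. The 2 libraries given LNP-cGAMP were the highest in every class, and the PBS level was higher in T cell-like than in neutrophil-like cells.

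The share of each paralogue in the UMIs of the 5 Ifit genes shows which of them a cell type used, with the family's total level taken out. These shares rest on 3958 to 10844 UMIs in neutrophil-like cells of treated libraries and 1576 in PBS, 11257 to 21541 and 5467 in monocyte/macrophage-like cells, and 231 to 1021 and 168 in T cell-like cells. In neutrophil-like cells Ifit1 held 30.7% (LNP-cGAMP), 38.9% (anti-PD-L1) and 32.6% (combination) of Ifit UMIs, against 51.8% in PBS. Ifit3 held 37.9%, 37.5% and 39.0% there, against 26.3% in PBS. The leading paralogue of neutrophil-like cells was thus Ifit3 in the LNP-cGAMP and combination libraries, and Ifit1 in the anti-PD-L1 and PBS libraries, though in anti-PD-L1 the intervals of the 2 shares overlapped.

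In monocyte/macrophage-like cells Ifit1 led in every library, with 33.9%, 39.2% and 34.1% of Ifit UMIs in the treated libraries, against 42.8% in PBS. Ifit2 took a larger part there than in neutrophil-like cells, 23.9%, 31.7% and 25.9%, against 27.9% in PBS, compared with 10.4%, 8.81% and 10.8%, against 9.39% in PBS, in neutrophil-like cells. Ifit3b showed the opposite, with 2.71%, 1.63% and 2.15% in monocyte/macrophage-like cells, against 1.70% in PBS, and 13.5%, 13.5% and 12.5% in neutrophil-like cells, against 11.5% in PBS. The 95% Clopper-Pearson intervals of these shares did not overlap between the classes in any library.

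In T cell-like cells Ifit3 led in every library, with 30.9%, 35.9% and 29.9% of Ifit UMIs in the treated libraries, against 37.5% in PBS, and Ifit1bl1 held its largest part among the 3 classes, 21.4%, 14.7% and 27.3%, against 8.33% in PBS. With every cell thinned to 1000 UMIs, Ifit3 led in 2 T cell-like libraries and Ifit1 in 2, so the leading paralogue of these cells was not settled at this depth.

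**Figure D2:**
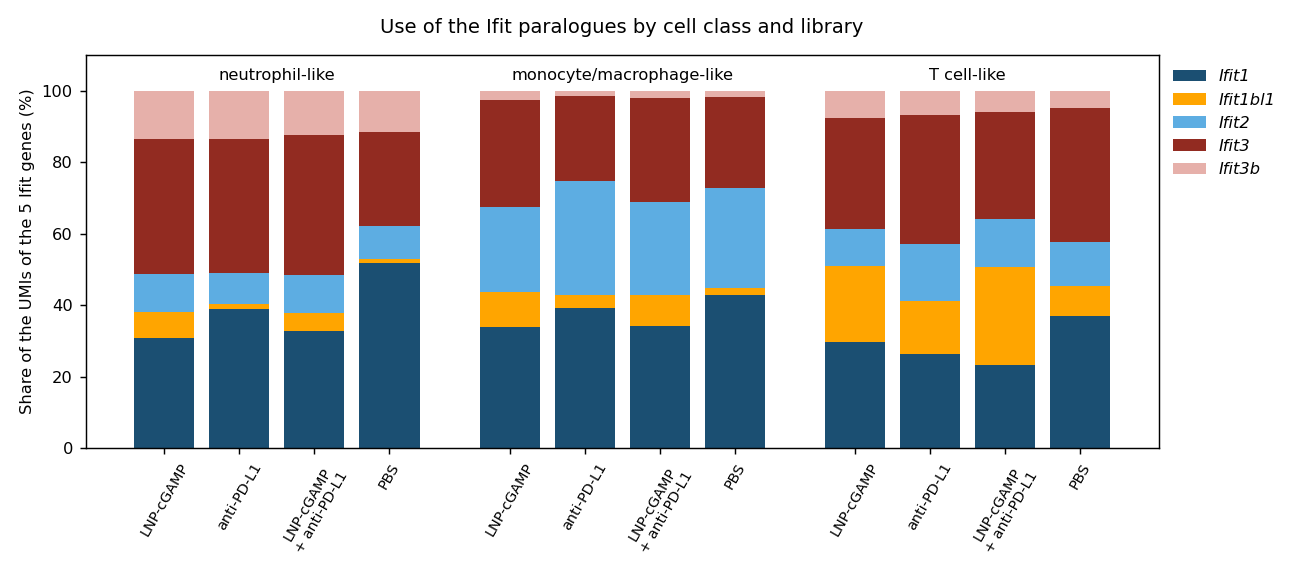
Share of the UMIs of the 5 Ifit genes held by each paralogue (%, stacked bars that start at 0), by cell class and library, with the treated libraries left of PBS. Ifit3b (pale red) is a visible part of neutrophil-like and T cell-like bars but at most 2.71% in monocyte/macrophage-like cells, and Ifit1bl1 (orange) is largest in the libraries given LNP-cGAMP.

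The LNP-cGAMP library was first set against PBS. No library had the nanoparticle without cGAMP, so the STING ligand, its carrier and the pool of mice cannot be told apart. All 7 members were at least 1.5-fold higher in neutrophil-like cells, where 6.56% of all genes were, and all 5 that passed the filter were higher in monocyte/macrophage-like cells, where 11.6% of all genes were. In T cell-like cells 1 of 4 was higher, Usp18, against 7.64% of all genes, and none was lower, against 5.47%. The median log2 ratio of the 7 genes was 2.25 in neutrophil-like cells, 1.65 in monocyte/macrophage-like cells and 0.37 in T cell-like cells, against a median of -0.15, 0.06 and 0.12 over all genes that passed the filter in those classes. Over the 4 members that passed it in T cell-like cells the median was 0.11, next to the 0.12 of all genes. Trimmed-mean (TMM) scaling would add 0.28 (LNP-cGAMP), 0.26 (anti-PD-L1) and 0.35 (combination) to every neutrophil-like log2 ratio against PBS. Ifit1bl1 and Ifit3b did not pass the filter in monocyte/macrophage-like cells, nor did Ifit1bl1, Ifit2 and Ifit3b in T cell-like cells.

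The size of the difference varied between members and differently in each class. As plain ratios of levels in neutrophil-like cells, Isg15 was 1.82-fold higher (1.75 to 1.90), Usp18 2.84-fold (2.38 to 3.40) and Ifit1 2.81-fold (2.60 to 3.03). Ifit2 was 5.25-fold higher (4.42 to 6.27), Ifit3b 5.58-fold (4.78 to 6.54), Ifit3 6.84-fold (6.18 to 7.58) and Ifit1bl1 32.9-fold (20.4 to 56.7). The genes with the highest PBS levels, Isg15 and Ifit1, thus had the smallest ratios along with Usp18. Among monocyte/macrophage-like cells 4 members lay close together, Ifit1 at 3.68-fold (3.52 to 3.86), Isg15 at 3.95-fold (3.87 to 4.04), Ifit2 at 3.97-fold (3.75 to 4.20) and Usp18 at 4.13-fold (3.87 to 4.41), with Ifit3 at 5.43-fold (5.12 to 5.76). Isg15 therefore had a larger ratio in monocyte/macrophage-like than in neutrophil-like cells, and its interval did not overlap.

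T cell-like cells did not follow the myeloid classes. Usp18 was 2.79-fold higher in the LNP-cGAMP library (1.71 to 4.86) and Isg15 1.40-fold higher (1.16 to 1.70), while the intervals of Ifit1 (ratio 0.811, 0.616 to 1.08), Ifit2 (0.838, 0.521 to 1.41) and Ifit3 (0.83, 0.632 to 1.11) included 1. The makeup of the class moved with these ratios: a cluster led by Bcl2, Il7r and Gimap3 held 32.0% (LNP-cGAMP), 54.7% (anti-PD-L1) and 29.8% (combination) of T cell-like cells, against 65.1% in PBS, and a cluster led by Gzmb, Cd3g and Cd8b1 held most of the others in the libraries given LNP-cGAMP. Within the Bcl2-led cluster, of 77 cells in LNP-cGAMP and 54 in PBS, Ifit1 had 139.7 CPM in LNP-cGAMP against 116.8 CPM in PBS, Ifit3 227.6 against 163.5 CPM and Isg15 362.0 against 183.5 CPM. In the Gzmb-led cluster of the LNP-cGAMP library the levels were lower, 39.2 CPM of Ifit1, 27.9 CPM of Ifit3 and 153.6 CPM of Isg15. Within the Bcl2-led cluster 4 members were at least 1.5-fold higher in LNP-cGAMP, Isg15, Usp18, Ifit1bl1 and Ifit3b. The intervals of Isg15 (1.47 to 2.69), Ifit1bl1 (1.17 to 4.73) and Ifit3b (1.12 to 6.60) reach below 1.5-fold. That of Usp18 was 1.54 to 7.07. The share of all genes past 1.5-fold was not computed in this cluster. The part of the makeup in the class's ratios was not tested beyond this cluster.

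Anti-PD-L1 alone went with smaller differences in the same direction in the myeloid classes. In neutrophil-like cells 6 of 7 members were at least 1.5-fold higher than in PBS, with 2.94% of all genes, and the exception was Usp18. Ifit3 was 3.80-fold higher (3.41 to 4.24), Ifit3b 3.13-fold (2.65 to 3.71), Ifit2 2.49-fold (2.06 to 3.03), Ifit1 2.00-fold (1.84 to 2.17) and Isg15 1.69-fold (1.63 to 1.77). Among monocyte/macrophage-like cells 2 of 5 were higher, Isg15 and Ifit2, with 1.65% of all genes, and the 7 plain ratios lay between 1.46 for Usp18 and 3.19 for Ifit1bl1. Among T cell-like cells none of 4 was higher, with 2.41% of all genes, and 2 were lower, with 1.89%, Ifit1 at 0.398 of the PBS level (0.275 to 0.577) and Ifit3 at 0.533 (0.38 to 0.752). The median log2 ratio of the 7 genes was 0.98, 0.50 and -0.32 in neutrophil-like, monocyte/macrophage-like and T cell-like cells, against -0.15, 0.00 and 0.01 over all genes that passed the filter. Over the members that passed it the median was 0.54 in monocyte/macrophage-like and -0.66 in T cell-like cells.

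The combination library lay between those of the single agents for all members of the myeloid classes but Isg15 in neutrophil-like cells, which was below both. Against PBS 7 of 7 members were higher in neutrophil-like cells (4.79% of all genes) and 5 of 5 in monocyte/macrophage-like cells (4.25%), while in T cell-like cells Ifit1 and Ifit3 were lower (8.33% of all genes lower) and none of 4 was higher (6.8%). In the Bcl2-led T cell-like cluster, with 48 cells in the combination, Ifit3 had 202.3 CPM in the combination against 163.5 CPM in PBS (ratio 1.24, 0.842 to 1.83) and Ifit1 88.9 against 116.8 CPM (0.761, 0.449 to 1.28), so neither was lower there beyond its interval. Against LNP-cGAMP alone the combination was lower by at least 1.5-fold in 5 of 5 members in monocyte/macrophage-like cells (2.78% of all genes lower), 2 of 7 in neutrophil-like cells, Ifit1bl1 and Ifit3b (4.98%), and 4 of 4 in T cell-like cells (2.71%). The plain ratios of combination to LNP-cGAMP were 0.415 to 0.567 in monocyte/macrophage-like cells, 0.46 for Ifit1bl1 to 0.834 for Isg15 in neutrophil-like cells and 0.421 to 0.727 in T cell-like cells. Against anti-PD-L1 alone, 1 member was higher in neutrophil-like cells, Ifit1bl1 (3.7% of all genes), 1 of 5 in monocyte/macrophage-like cells, Ifit3 (1.99%), and none of 4 in T cell-like cells (3.37%). These comparisons share libraries, the PBS one in particular, so they are not independent of one another.

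**Figure D3:**
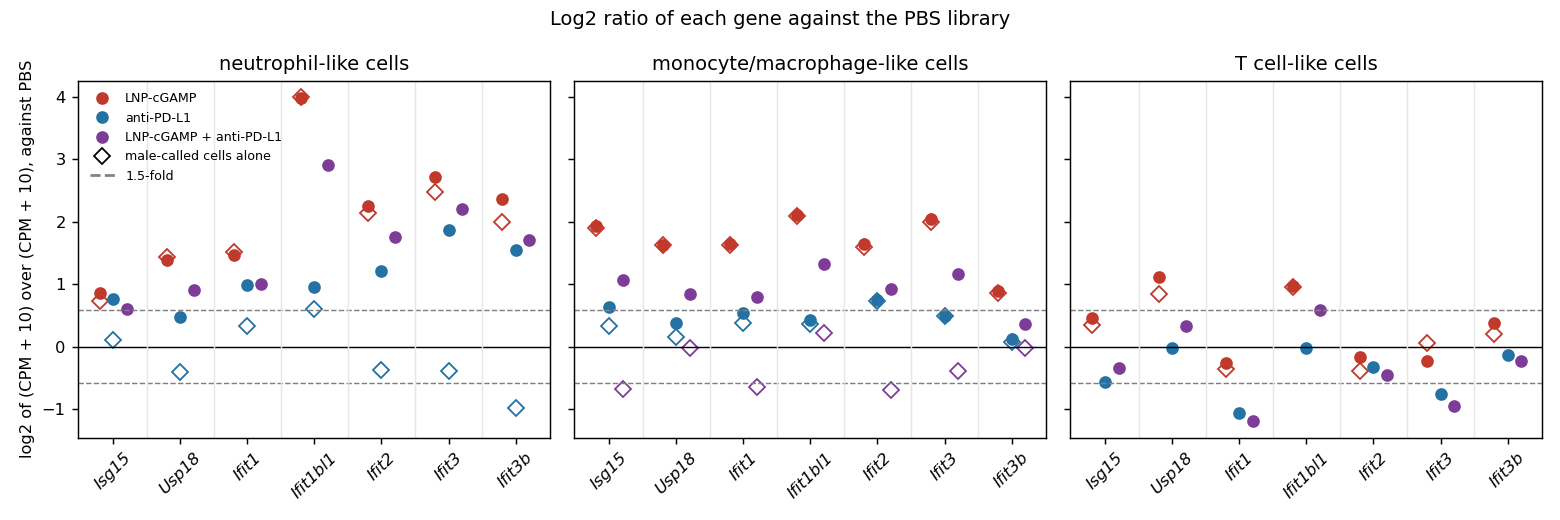
Log2 of (CPM + 10) in each treated library over (CPM + 10) in PBS, for the 7 genes in 3 cell classes, with filled circles for all cells of a class, open diamonds for male-called cells alone and dashed lines at 1.5-fold. All filled circles lie above 0 in neutrophil-like and monocyte/macrophage-like cells, the filled circles of Ifit1 and Ifit3 lie below 0 in T cell-like cells, and open diamonds of the combination in monocyte/macrophage-like cells lie below 0 for 6 of 7 genes.

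The sex of the cells moved with these results. In the combination library 1496 female-called monocyte/macrophage-like cells had 410 CPM of Isg15 against 111 CPM in 463 male-called cells, 3.70-fold higher (3.48 to 3.94), and 6 of 7 members were at least 1.5-fold higher in female-called cells. The share of all genes past 1.5-fold was not computed for this split, so the count has no background beside it. Ifit1 had 78.1 CPM in female-called and 21.7 CPM in male-called cells, Ifit2 63.0 and 12.4 CPM, and Ifit3 65.8 and 15.8 CPM. The male-called cells were below the PBS level of these genes, with log2 ratios against male-called PBS cells of -0.67 for Isg15, -0.64 for Ifit1, -0.70 for Ifit2 and -0.38 for Ifit3, so the direction of the combination against PBS depended on which cells of the pool were counted. The 2 kinds of cell also lay in different clusters: of the male-called cells 247 and 134 were in the 2 clusters led by Saa3 and 60 in a cluster led by Alox15, while female-called cells were mostly in the clusters led by Ccl12 (478), Lyve1 (357), Cd163 (245) and Chil3 (242).

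In the anti-PD-L1 library the same split gave a different picture in each class. In monocyte/macrophage-like cells, 1260 female-called against 612 male-called, none of 7 members was 1.5-fold higher, and Isg15 had 315 CPM against 232 CPM. In neutrophil-like cells, 122 against 80, all 7 were at least 1.5-fold higher in female-called cells, though the ratio of Ifit1bl1 rests on 10 against 2 UMIs (0.595 to 26.2) and the intervals of Isg15 (1.34 to 1.71), Ifit1 (1.42 to 2.30) and Usp18 (1.19 to 5.36) reach below 1.5-fold. Ifit3 was at 950 CPM against 171 CPM (5.57-fold, 3.87 to 8.28), Ifit3b at 366 against 53.3 CPM and Ifit1 at 893 against 496 CPM. Most neutrophil-like cells of this library had no sex call, with 595 of 755 in a cluster led by Stfa2l1 and 120 of 161 in one led by Retnlg. The Stfa2l1-led cluster held 101 of the 122 female-called and 58 of the 80 male-called cells. Male-called neutrophil-like cells of this library against those of PBS had log2 ratios of -0.40 for Ifit3, -0.98 for Ifit3b, 0.33 for Ifit1 and 0.10 for Isg15. The LNP-cGAMP and PBS pools were both male-called, and in male-called cells alone 7 and 5 members were higher in neutrophil-like and monocyte/macrophage-like cells. The neutrophil-like log2 ratios of Ifit3 (2.48 in male-called cells, 2.72 in all cells), Ifit3b (2.00 and 2.36) and Isg15 (0.73 and 0.86) moved by more than their counting error. No T cell-like member was called there, since Usp18, at 47.0 CPM in LNP-cGAMP, no longer passed the filter of 50 CPM. In the combination only 7 neutrophil-like and 6 T cell-like cells were male-called, too few to compare. For the counts of members in this split and in male-called cells alone, the share of all genes past 1.5-fold was not computed. Sex, single mouse and treatment cannot be told apart here, since cells of a pool that share a sex may come from 1 mouse.

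**Figure D4:**
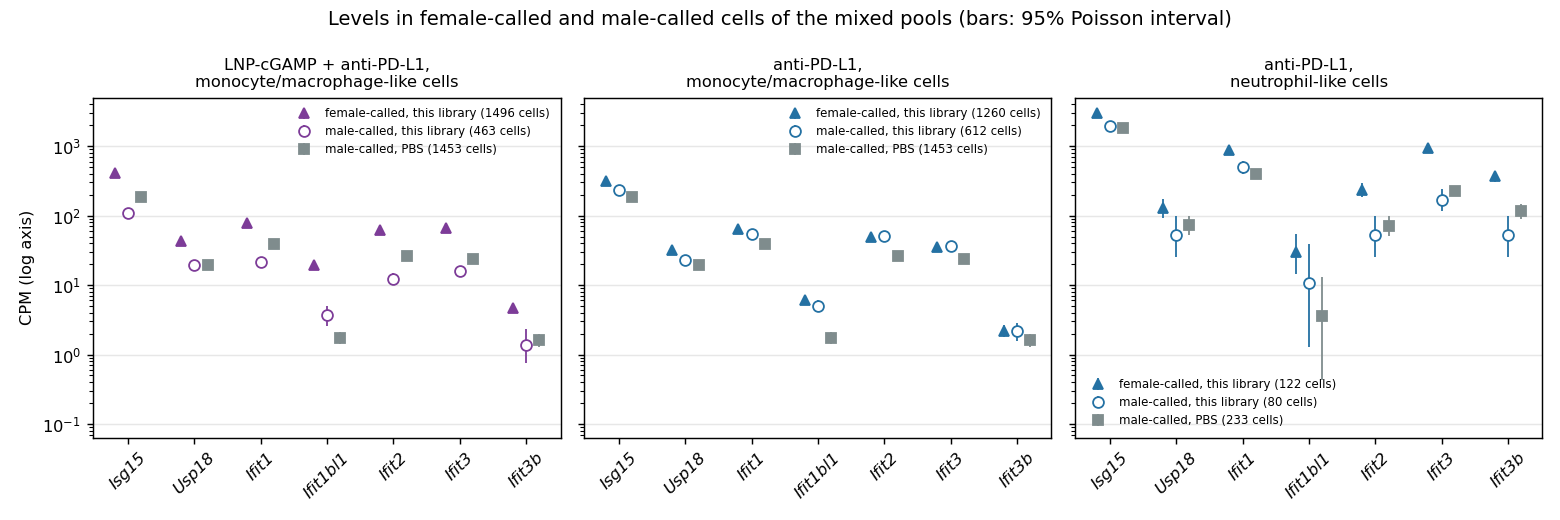
Levels (CPM, log axis) of the 7 genes in female-called cells (triangles) and male-called cells (open circles) of the combination and anti-PD-L1 libraries and in male-called cells of PBS (grey squares), with 95% Poisson intervals. In monocyte/macrophage-like cells of the combination the triangles lie above and the open circles mostly below the PBS squares, as for Isg15 at 410 and 111 CPM.

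Levels also varied between clusters of a class. Among neutrophil-like clusters the one led by Stfa2l1 had the highest levels in every library, with Isg15 at 4721.5, 3437.4 and 3032.4 CPM in LNP-cGAMP, anti-PD-L1 and the combination, against 1983.6 CPM in PBS, and the cluster led by Retnlg had 2054.5, 1387.8 and 1546.0 CPM, against 750.4 CPM in PBS. Ifit1bl1 was the most uneven member there: in the LNP-cGAMP library it had 514.9 CPM in the Stfa2l1-led cluster, 46.7 CPM in the Retnlg-led one and 195.1 CPM in one led by Mmp8. Within the Stfa2l1-led cluster alone, LNP-cGAMP was above PBS 53.7-fold for Ifit1bl1 (32.3 to 96.4), 8.04-fold for Ifit3 (7.22 to 8.96) and 2.38-fold for Isg15 (2.28 to 2.49).

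The clusters that held most monocyte/macrophage-like cells differed between the libraries given LNP-cGAMP and the others. Of 2300 such cells in LNP-cGAMP, a Ccl12-led cluster held 854 and a pair of Saa3-led clusters 676 and 372, while of 1633 in PBS the Cd163-led, Lyve1-led and Chil3-led clusters held 687, 563 and 326. Those last 3 clusters held 8.48% (LNP-cGAMP), 93.6% (anti-PD-L1) and 39.6% (combination) of the class, against 96.5% in PBS. The cluster led by Chil3, Ccr2 and Vcan was the only one with at least 50 cells in every library, 185 (LNP-cGAMP), 641 (anti-PD-L1), 326 (combination) and 326 (PBS). It had the highest Isg15 levels of the class, 2048.0, 753.6 and 1090.7 CPM, against 552.0 CPM in PBS. Within it the ratios of LNP-cGAMP to PBS were 3.71 for Isg15 (3.55 to 3.88), 3.17 for Ifit1 (2.85 to 3.54), 5.08 for Ifit3 (4.42 to 5.86), 5.90 for Ifit2 (4.96 to 7.03) and 4.33 for Usp18 (3.64 to 5.16). Those of the combination were 1.98 for Isg15 (1.89 to 2.07) and 2.42 for Ifit3 (2.09 to 2.80). In clusters led by Saa3 the levels of the LNP-cGAMP library exceeded those of the combination, with Isg15 at 434.6 against 136.7 CPM in one and 247.9 against 107.2 CPM in the other, while in the clusters led by Fabp5 and Ccl12 they were nearer, 648.6 against 503.5 CPM and 987.2 against 775.3 CPM.

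**Figure D5:**
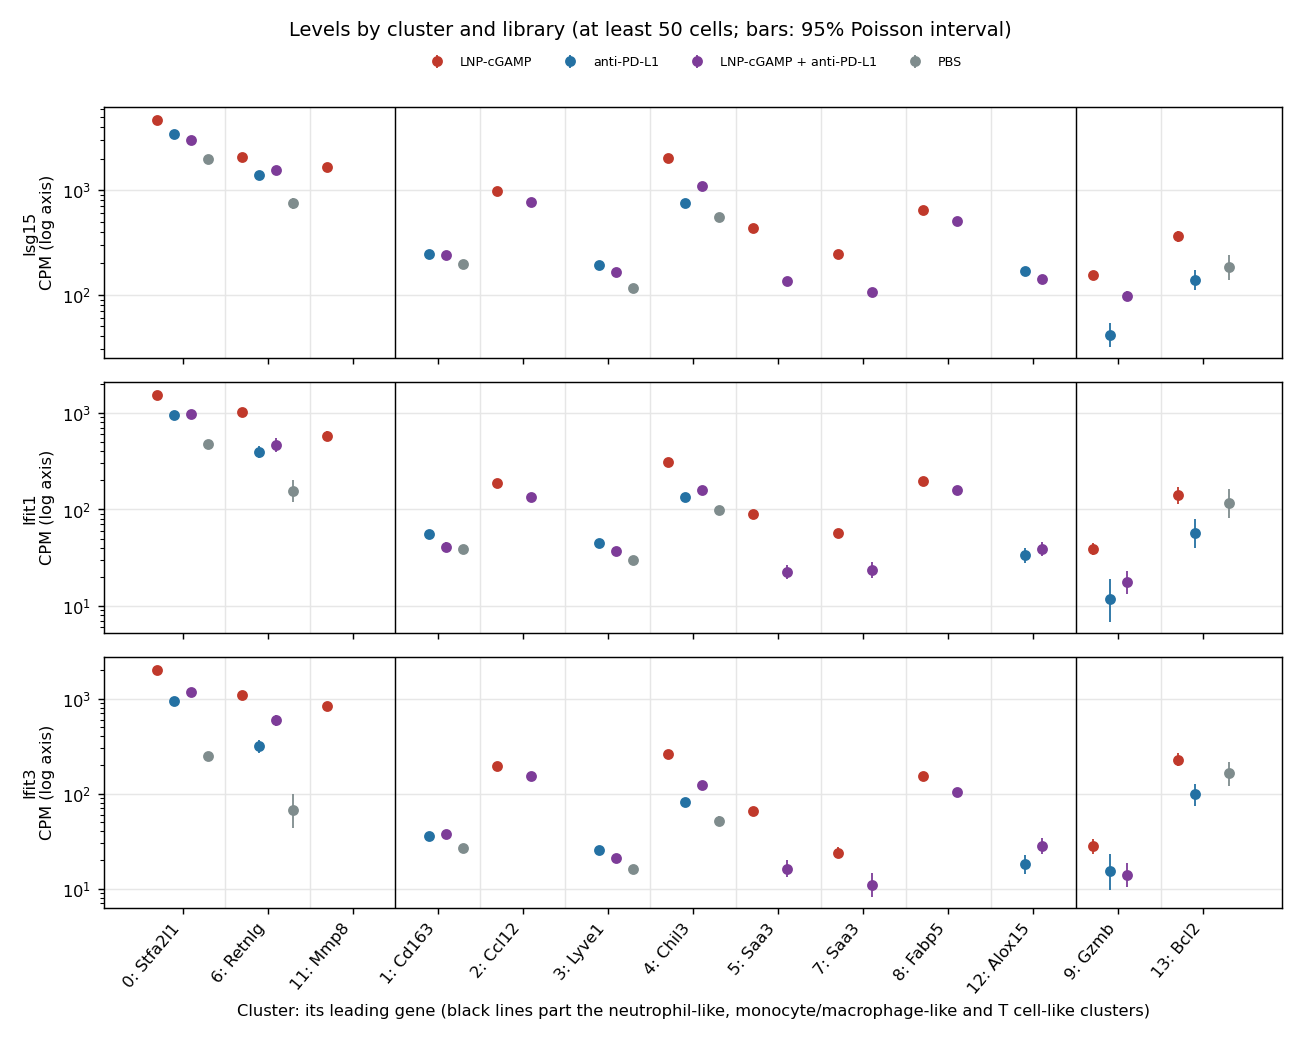
Levels of Isg15, Ifit1 and Ifit3 (CPM, log axes) in each cluster of the 3 classes, by library, where a library held at least 50 cells, with 95% Poisson intervals. Clusters are named by number and leading gene, and the Stfa2l1-led neutrophil-like cluster and the Chil3-led monocyte/macrophage-like cluster are highest of their classes in Isg15 in every library.

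Shares of cells with a UMI were compared after each cell was thinned to 1000 UMIs, because neutrophil-like cells had medians of 2090.5 to 2508.5 UMIs and monocyte/macrophage-like cells of 20583 to 34762. Any of the 5 Ifit genes was found in 81.6% (LNP-cGAMP), 59.5% (anti-PD-L1) and 70.9% (combination) of thinned neutrophil-like cells, against 33.6% in PBS, and unthinned in 92.0%, 69.5% and 84.7%, against 45.1%. In thinned monocyte/macrophage-like cells the shares were 30.0%, 15.8% and 20.1%, against 10.3% in PBS, and unthinned 88.9%, 85.2% and 79.5%, against 71.4%. T cell-like cells had 17.0%, 10.1% and 15.5%, against 22.0% in PBS, thinned, and 83.4%, 48.6% and 71.4%, against 54.2%, unthinned. Isg15 was found in 80.1%, 79.9% and 77.1% of thinned neutrophil-like cells, against 65.2% in PBS. Erythroid cell-like cells, with medians of 1700 to 5378 UMIs, were set beside the compared classes. Whether they lack these genes was not tested, so their share cannot be read as a measure of background. Erythroid cell-like cells had an Ifit UMI in 9.09%, 11.8% and 22.1% of 11, 34 and 68 thinned cells, against 2.94% of 34 in PBS. The T cell-like shares in the anti-PD-L1 and combination libraries and the monocyte/macrophage-like share in the combination did not exceed the erythroid share of their library, while all neutrophil-like shares did. The erythroid shares rest on few cells, with an interval of 12.9% to 33.8% in the combination and 3.30% to 27.5% in anti-PD-L1. The share estimated from free RNA within each class was lower, 4.11% in monocyte/macrophage-like cells of the combination and 0.398% and 0.0549% in T cell-like cells of anti-PD-L1 and the combination, and all 3 measured shares exceeded it.

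The genes that act with this set were measured beside it. The ISG15 conjugation genes were 4 in all. For LNP-cGAMP against PBS, 2 of 3 were higher in monocyte/macrophage-like cells (median log2 ratio 0.83), against 11.6% of all genes (median 0.06). In neutrophil-like cells 1 of 4 was higher (0.39), against 6.56% of all genes (median -0.15). None passed the filter in T cell-like cells. Ube2l6, the conjugating enzyme, had 109 CPM in LNP-cGAMP against 49.0 CPM in PBS, and Herc6, the ligase that conjugates ISG15 in mouse, 72.4 against 36.2 CPM, both in monocyte/macrophage-like cells. In the same cells Stat2, which acts in ISGF3, had 77.5 CPM in LNP-cGAMP against 35.0 CPM in PBS, and Irf9, which also acts in it, 97.0 against 45.8 CPM.

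Many other type I interferon response genes were also higher in the myeloid classes, with smaller medians than the members. For LNP-cGAMP against PBS, 19 of 31 were higher in neutrophil-like cells (median log2 ratio 0.69), 26 of 30 in monocyte/macrophage-like cells (0.86) and 6 of 21 in T cell-like cells (0.32), with 2 lower there, against 6.56%, 11.6% and 7.64% of all genes higher and 5.47% lower in T cell-like cells. Anti-PD-L1 gave 9 of 31, 1 of 30 and 1 of 21 higher in the same class order (2.94%, 1.65% and 2.41% of all genes), with 2 of 21 lower in T cell-like cells (1.89%). The combination gave 14 of 31, 9 of 30 and 1 of 21 higher (4.79%, 4.25% and 6.8%), with 6 of 21 lower in T cell-like cells (8.33%, median log2 ratio -0.22). Irf7, which amplifies interferon transcription, had 1458 CPM in LNP-cGAMP, 957 CPM in anti-PD-L1 and 1211 CPM in the combination in neutrophil-like cells, against 491 CPM in PBS. The next counts are again for LNP-cGAMP against PBS. Of 11 sensors and adaptors upstream of interferon, 1 of 5 was higher in neutrophil-like cells (median log2 ratio 0.33, 6.56% of all genes). In monocyte/macrophage-like cells 4 of 6 were higher (0.81, 11.6%), and in T cell-like cells 1 of 3 was (0.32, 7.64%). The other feedback genes, Socs1 and Socs3, inhibit cytokine receptor signalling. Both were higher in monocyte/macrophage-like cells (median 1.07) and neither in neutrophil-like cells (-0.22). In T cell-like cells both were lower (-0.82), against 5.47% of all genes. Of 9 interferon genes only Ifng, the type II interferon, passed the filter, in T cell-like cells, with 91.0 CPM in LNP-cGAMP, 57.4 CPM in anti-PD-L1 and 211 CPM in the combination, against 48.7 CPM in PBS. Ifit1bl2, the neighbour of Ifit1 that is not a member, had 65.3, 32.2 and 53.2 CPM in neutrophil-like cells, against 24.9 CPM in PBS, and did not pass the filter in the other classes.

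The balance between Isg15 and the Ifit genes also differed by cell type. UMIs of Isg15 per UMI of the 5 Ifit genes were 0.84 (LNP-cGAMP), 1.39 (anti-PD-L1) and 1.04 (combination) in neutrophil-like cells, against 2.19 in PBS. They were 1.70, 1.86 and 1.78 in monocyte/macrophage-like cells, against 2.00 in PBS, and 1.01, 0.85 and 1.01 in T cell-like cells, against 0.73 in PBS. The ratio was lower than in PBS in all treated libraries of both myeloid classes, and higher in all of T cell-like cells.

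Over the 12 sums of 3 classes in 4 libraries, the correlation of log2(CPM + 10) between members was 0.57 to 0.98. These sums share libraries and differ in depth. The lowest value was for Ifit1bl1 with Isg15. The highest were for Ifit1 with Isg15, Ifit1 with Ifit3 and Ifit3 with Ifit3b. The filter over these sums was passed by 4626 genes, the members included. Outside the set, the most alike to Isg15 were Slfn4, Zcchc2 and Psme2b (Pearson's r 0.99 each), to Ifit1 Trim21, Ifi47 and 1600014C10Rik (0.99 each) and to Ifit2 Xaf1, Tsc22d3 and Birc3 (0.97 to 0.98). Ifit3 was most like Lipg, Xaf1 and Trim21 (0.97 to 0.98) and Usp18 most like Mmp8, Xaf1 and Irf9 (0.97 to 0.98). Ifit3b was most like Mrgpra2a, Mrgpra2b and Ifit1bl2 (0.98 to 0.99), and Ifit1bl1 had the weakest matches, H2-T22, Pttg1 and Ifi27l2a (0.85 to 0.87). Each class was also centred on its own mean, so that only differences between libraries counted. The closest genes were then Trim21 for Ifit1 (0.95), Scnn1a for Ifit2 (0.95), Xaf1 for Ifit3 (0.96) and Gbp9 for Ifit3b (0.96). They were Rab10 for Isg15 (0.95), Oasl1 for Usp18 (0.97) and Pyhin1 for Ifit1bl1 (0.98).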

How the data were processed

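The deposited values are UMI counts per gene and barcode, not normalized, written by Cell Ranger (3.0.2 in the file headers) on mm10 per the submitters' processing notes. The labels name both version 2 and version 3 of the reagent kit, which was not settled here. Barcodes were kept above the lowest point of the density of log10 UMIs between 300 and 5000 (882 to 960 UMIs), with at least 200 genes and at most 10% mitochondrial UMIs. Scrublet called 1 to 13 doublets per library, at most 0.365%, so the caller did not work and no doublet was removed. Cells were clustered with scanpy 1.11.5 (2000 variable genes without interferon response genes, 30 components, 15 neighbours, Leiden resolution 1, leidenalg 0.10.2), and clusters were named from marker genes. UMIs were summed per class and library and given as CPM with exact Poisson intervals. Ratios of sums have exact conditional binomial intervals and shares Clopper-Pearson intervals. A gene passed the filter if its UMIs summed to at least 20 across libraries and 1 library reached 50 CPM, and was called past 1.5-fold on log2(CPM + 10). Free RNA was estimated from barcodes of 10 to 100 UMIs and from the class's own lowest level of another type's markers. The calculations were tested on simulated data. Cells were sex-called from Xist and Y-linked genes. Alternatives changed the pseudocount, filter, scaling (TMM, edgeR 4.0.16), weighting, depth, cell filters, clustering and class definition. All 7 members were named in every class, 3 genes most like each member by correlation, and from each list the genes with the largest ratios plus Stat2, Irf7, Irf9, Uba7, Ube2l6 and Herc6. With 1 library per treatment no test was run. A gene under this rule, and the counts of the list that holds it, are not reported here. The members, lists and comparisons were chosen with earlier results of these data known. Gene coordinates are from GENCODE's GRCm38 annotation, and promoter sequences from RefSeq.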

Additional observations from a re-analysis of the deposited data

Results flagged for a closer look

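Counted over all cells of a class, Ifit1 and Ifit3 were higher than PBS in the myeloid classes and lower in T cell-like cells under the same treatment. For anti-PD-L1 the log2 ratio of Ifit1 was -1.07 in T cell-like and 0.98 in neutrophil-like cells, and that of Ifit3 was -0.75 and 1.88. For the combination the log2 ratio of Ifit1 was -1.20 in T cell-like cells, against 1.00 in neutrophil-like and 0.80 in monocyte/macrophage-like cells. That of Ifit3 was -0.95 in T cell-like cells, against 2.20 in neutrophil-like and 1.16 in monocyte/macrophage-like cells. Within the Bcl2-led T cell-like cluster, which held 54.7% (anti-PD-L1) and 29.8% (combination) of T cell-like cells, against 65.1% in PBS, the log2 ratios for the combination were -0.36 for Ifit1 and 0.29 for Ifit3, each with a counting interval that includes no change, and for anti-PD-L1 -0.91 and -0.69. In male-called cells alone the log2 ratios for anti-PD-L1 in neutrophil-like cells were 0.33 for Ifit1 and -0.40 for Ifit3. For the combination in monocyte/macrophage-like cells they were -0.64 and -0.38. Too few T cell-like cells of either library were male-called to compare. With 1 library per treatment the differences between cell types were not tested. The PBS levels of T cell-like cells rest on 62 UMIs of Ifit1 and 63 of Ifit3.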

How the results depend on the processing

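No library could be left out. No paired analysis was possible because each treatment has 1 library. Of 301 recomputed counts 273 stayed within 1.5 times of the reported one and 28 did not, and of 819 other values 670 stayed within their counting interval, 140 moved and 9 changed sign. Reported counts stand in parentheses after the recomputed ones. In male-called cells alone the log2 ratio changed sign, to -0.37 for Ifit2, -0.40 for Ifit3 and -0.98 for Ifit3b in neutrophil-like cells of anti-PD-L1 against PBS, and to -0.67 for Isg15, -0.64 for Ifit1, -0.70 for Ifit2, -0.38 for Ifit3 and -0.016 for Usp18 in monocyte/macrophage-like cells of the combination against PBS. The members higher there were 1 in neutrophil-like (6) and 1 in monocyte/macrophage-like cells (2) for anti-PD-L1, 0 (5) for the combination against PBS and 0 (1) against anti-PD-L1, and 0 (1) in T cell-like cells for LNP-cGAMP. After thinning to 1000 UMIs, Ifit1bl1 in T cell-like cells of LNP-cGAMP against PBS gave -0.079, the members higher were 0 (1) there, 4 (0) for the combination against anti-PD-L1 and 4 (2) for T cell-like against monocyte/macrophage-like cells, and Ifit3 led in 2 (4) and Ifit1 in 2 (0) T cell-like libraries. Without the filter on low values the members higher in T cell-like cells were 2 (1) for LNP-cGAMP, 1 (0) for the combination against anti-PD-L1 and 5 (2) against monocyte/macrophage-like cells, and the monocyte/macrophage-like count for the combination against anti-PD-L1 was 2 (1). Weighting each cell equally gave 2, 1 and 5 for the same 3 T cell-like counts, 0 (1) for that last count and 4 (2) for anti-PD-L1 against PBS in monocyte/macrophage-like cells. That anti-PD-L1 count was 4 with a pseudocount of 1 CPM, 4 at a clustering resolution of 2 and 1 under a marker gate per cell. Within 1 cluster per class, LNP-cGAMP gave 4 (1) in T cell-like cells, and the combination against anti-PD-L1 gave 0 (1) in monocyte/macrophage-like and 2 (1) in neutrophil-like cells. The last was also 2 under TMM scaling and under the marker gate, and TMM gave 1 (2) for T cell-like against monocyte/macrophage-like cells. The causes were not tested. The removal of cells whose barcode is in more than 1 library, chosen after seeing the data, moved none of its 24 counts and none of its 63 ratios. Male-called cells were under 50 in neutrophil-like (7) and T cell-like (6) cells of the combination and T cell-like cells of anti-PD-L1 (28), so those values were not computed. The T cell-like cluster of the combination held 48 cells, under the minimum of 50, so its members were not counted, and its log2 ratio against PBS was 0.29 for Ifit3 and -0.36 for Ifit1. T cell-like ratios rest on 8 to 122 UMIs per gene in PBS.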

Other observations

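Conventional dendritic cell-like cells, 55 (LNP-cGAMP), 107 (anti-PD-L1), 74 (combination) and 115 (PBS) in number, were not among the compared classes. They had 1913 CPM of Isg15 in LNP-cGAMP, 679 CPM (anti-PD-L1) and 553 CPM (combination), against 550 CPM in PBS. Their Usp18 level was 223.6, 70.2 and 79.0 CPM, against 50.1 CPM in PBS, and their Ifit3 level 312.8, 92.8 and 117 CPM, against 78.9 CPM in PBS. The LNP-cGAMP library was thus highest and the other 3 lay nearer to one another.

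Mesothelial cell-like cells were few, 7, 5 and 17 in the LNP-cGAMP, anti-PD-L1 and combination libraries and 8 in PBS. Their medians were 58240 to 72882 UMIs per cell. They had 1199 CPM of Ifit3 in LNP-cGAMP, 243.8 CPM in anti-PD-L1 and 306.1 CPM in the combination, against 187.4 CPM in PBS, and 229.6, 87.9 and 50.04 CPM of Ifit3b, against 37.5 CPM in PBS. Ifit3b thus stood in these cells, as in neutrophil-like cells, above its level in monocyte/macrophage-like cells of every library. NK cell-like cells of the LNP-cGAMP library, 101 in number, had 69.3 CPM of Isg15, 63.2 CPM of Usp18 and 11.1 CPM of Ifit1.

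Near-empty droplets carried Isg15 at 521, 309 and 469 CPM in the treated libraries, in the same order, and at 497 CPM in PBS, between the levels of neutrophil-like and T cell-like cells.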
